A study of Mus musculus with 26 samples.

Results

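Heat shock proteins and chaperones were taken as every gene whose symbol begins with Hsp90, with Hspa, Hspb, Hspd, Hspe or Hsph and a digit, with Dnaja, Dnajb or Dnajc and a digit, or with a Cct number of the cytosolic chaperonin, together with Tcp1, Ahsa1, Stip1 and Hsf1. The rule leaves out 5 chaperone genes of the endoplasmic reticulum (Hspa5, Hsp90b1, Dnajb9, Dnajb11 and Dnajc3), and it gave 77 of the 19938 genes measured by a probe set with a single symbol. Hsf1, Hsp90ab1 and Hspa1b had no such probe set in the annotation used and were not analysed here. The 77 members comprise 12 HSP70 and HSP110 genes, 1 HSP90 gene, 2 HSP90 co-chaperones, 42 J-domain proteins (4 of class A, 11 of class B, 27 of class C), 10 subunits or relatives of the cytosolic chaperonin, 2 of the mitochondrial chaperonin and 8 small heat shock proteins. Their mRNA was measured on 26 Affymetrix Mouse Gene arrays of the murine Ba/F3/gp130 line, pro-B cells that carry the signal-transducing receptor gp130 and depend on interleukin-3 or on Hyper-IL-6, a fusion of IL-6 with its soluble receptor. All cells were starved of serum for 4 h after 4 washes. Cells with the natural receptors IL-10R2 and IL-22Rα1 were left untreated (4 arrays) or given IL-22 (4 arrays). Cells with synthetic receptors carried mCherryVHHIL-10R2 and GFPVHHIL-22Rα1, in which VHH stands for a nanobody that binds mCherry or GFP, and were left untreated, given GFP-mCherry or given mCherry-Fc (6 arrays each). Each protein was used at 100 ng/ml, for 2 h as the general protocol states. The series' title names homodimeric IL-10R2 and crosstalk with gp130 as its subject, the question to which mCherry-Fc belongs. No group given an inactive protein entered the comparisons, and nothing in the labels says whether arrays of a group came from separate cultures or whether a line was a single clone, so the p-values measure the spread between these arrays, which may be technical.

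Molecular chaperones hold, fold and refold other proteins. HSP70 binds short stretches of unfolded chains, J-domain proteins such as DNAJB1 deliver those chains and switch on the ATPase of HSP70, and HSP110 proteins exchange its nucleotide. HSP90 completes the folding of kinases and receptors, among them many of cytokine pathways, while the barrel-shaped chaperonins enclose their clients, in the cytosol for actin and tubulin and in mitochondria for imported proteins. Heat shock factor 1 drives many of these genes through the heat shock element, an array of inverted GAA units, and IL-22 and IL-6 type receptors signal mainly through STAT3.

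The bases before the transcription starts of the members are shown because the heat shock element is the sequence that defines the classical regulation of these genes. RefSeq's promoter table (GRCm38.p6) has an entry for 63 of the 77 members. In the 250 bases before each start, 3 alternating units (GAANNTTCNNGAA or TTCNNGAANNTTC, which between them cover both strands) occurred in 3 of the 63 members, 4.76%, and in 0.514% of the table's 27025 genes. The 3 were Dnajb6, Hspd1 and Hspe1. A match of 2 units (GAANNTTC or TTCNNGAA, which also lie within the longer matches) was found for 16 of the 63 members, 25.4%, against 14.5% of all genes. Capitals mark the match in each line, given 5′ to 3′ along the gene's strand.
Hspe1 and Hspd1, shared stretch (chr1:55088053-55088082, plus strand): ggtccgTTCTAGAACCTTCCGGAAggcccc
Dnajb6 (chr5:29735844-29735873, plus strand): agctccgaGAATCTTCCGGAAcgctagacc
Hsph1 (chr5:149636351-149636380, minus strand): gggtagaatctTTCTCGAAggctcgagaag
Dnaja1 (chr4:40722333-40722362, plus strand): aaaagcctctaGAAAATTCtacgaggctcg
Cct5 (chr15:31601862-31601891, minus strand): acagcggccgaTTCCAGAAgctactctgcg
Cct2 (chr10:117063399-117063428, minus strand): ccccaagtgaaGAAGTTTCtagcaggacct
Dnajb4 (chr3:152193846-152193875, minus strand): gttcgttcgttcgctgTTCTAGAAagtaca
Hspe1 and Hspd1 face away from each other on chromosome 1 and share the stretch shown. It holds a pair of overlapping matches of 3 units, together 89 to 72 bases before the Hspe1 start. Dnajb1, the member with the largest response below, is shown for the 120 bases before its upstream start, where all letters are lower case because neither form was found.
Dnajb1 (chr8:83608055-83608174, plus strand): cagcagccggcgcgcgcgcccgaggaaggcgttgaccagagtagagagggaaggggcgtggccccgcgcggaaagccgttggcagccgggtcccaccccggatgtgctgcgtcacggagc
The spaced palindrome TTCNNNGAA that STAT dimers bind, the same on both strands and searched after the values of Dnajb1 were known, was absent from both Dnajb1 windows, was present for 4 of the 63 members (Cct5, Dnajc7, Dnajc13 and Dnajc27) and for 8.13% of all genes. These matches describe letters only.

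Arrays of one group correlated at 0.981 to 0.994 over all genes. Values are log2 intensities of probe sets as the authors deposited them, and 59 members had a mean at or above that of the median gene (6.53). Among markers of the labelled cell type, Cd79a and Cd79b were above the median gene and the other 7 of 9 measured B lineage markers were below it. Of the myeloid list 7 of 7 markers were measured, and their mean per array was 7.86 to 9.33 in untreated natural receptor cells and 7.18 to 7.52 in untreated synthetic receptor cells. Among them Itgam averaged 10.34 and 5.59 in these groups, Mpo 8.99 and 7.21, and Lyz2 6.52 and 5.06. Spi1 averaged 11.52 and 11.13, Csf1r 6.23 and 6.04, Elane 6.16 and 6.09, and Prtn3 10.02 and 10.59. Differences in bulk RNA cannot tell fewer cells of a kind from less RNA per cell.

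Dnajb1 and Hspa14 rose with IL-22 in natural receptor cells, while Hsp90aa1, Hspa8, Hspa1a and the chaperonin genes did not pass the test. Of the 77 members 7 rose and 5 fell, 15.6% in all, at an adjusted p under 0.05 in limma's test, where 11.4% of all genes were called. The share called higher was 9.09% of members and 5.39% of all genes, and the share called lower was 6.49% and 6.03%. Among genes at or above the median gene 20.3% of 59 members and 20.6% of all such genes were called. There the share called higher was 11.9% and 9.52%, and the share called lower 8.47% and 11.1%. The median difference was 0.02 over the members and −0.02 over all genes (log2). Dnajb1, Hspa14 and Dnajb4 were the calls past 1.5-fold.

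Dnajb1 encodes the main cytosolic class B partner of HSP70. Its log2 value was 9.15, 9.06, 8.96 and 9.16 on the untreated arrays and 10.24, 10.49, 10.33 and 10.21 on the IL-22 arrays. Every IL-22 array stood more than 1 log2 unit above every untreated array. The difference of 1.24 (SE 0.07, 95% interval 1.10 to 1.37) is 2.36-fold (adjusted p = 2.92e-14, limma). Hspa14 encodes an HSP70 that works at the ribosome. It measured 8.90, 8.90, 8.70 and 8.82 untreated and 9.36, 9.58, 9.55 and 9.30 with IL-22, again without overlap, and rose by 0.62 (SE 0.07, adjusted p = 1.32e-07), 1.54-fold. Its J-domain partner on the ribosome, Dnajc2, rose by 0.23 (SE 0.07, adjusted p = 0.0208). That call did not hold with the replicate number as a block (adjusted p = 0.0839), nor without any of 4 single arrays (up to 0.0978). Dnajb1 and Hspa14 kept their calls under all 18 alternative settings, the left-out arrays included, and no other member did. These settings include the high replicate numbers, where IL-22 array 5 stood alone.

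**Figure D1:**
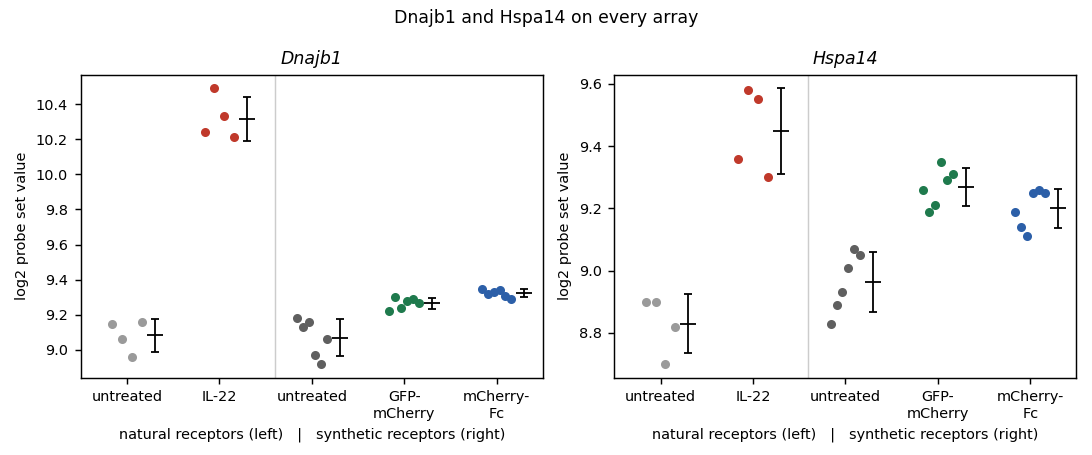
Log2 probe set values (vertical axis) of Dnajb1 and Hspa14 on each of the 26 arrays, by group, with the group mean and SD as a bar beside the points. The IL-22 arrays of Dnajb1 lie between 10.21 and 10.49, above all other arrays, and both synthetic groups given protein lie between 9.22 and 9.35.

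The remaining rises with IL-22 were small. Dnaja2, a class A J-domain protein, measured 9.96, 9.88, 9.79 and 9.84 untreated and 10.13, 10.27, 10.20 and 10.06 with IL-22, and rose by 0.30 (SE 0.08, adjusted p = 0.00933). Ahsa1, the activator of the HSP90 ATPase, went from 9.41, 9.48, 9.26 and 9.35 to 9.59, 9.69, 9.68 and 9.66 and rose by 0.28 (adjusted p = 0.000926). Neither gene's groups overlapped. Dnajc6, the clathrin-uncoating factor auxilin, rose by 0.28 (adjusted p = 0.0108). Dnaja1 rose by 0.22 (adjusted p = 0.0268), from 10.97, 10.92, 10.84 and 10.88 to 11.11, 11.17, 11.26 and 10.97, with overlap. Its dimmer probe set was not called (0.12, adjusted p = 0.554), the blocked fit gave 0.0521, and leaving out any of 5 arrays (IL-22 1, 2 or 3, untreated 4 or 5) ended the call, with 0.135 as the highest adjusted p. Of the 12 calls, 6 held whichever array was left out (Ahsa1, Dnaja2, Dnajb1, Dnajb14, Dnajc6 and Hspa14). Without IL-22 array 1, or without untreated array 5, 7 members were called in place of 12.

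The 5 falls were 4 class B J-domain proteins and 1 HSP110 gene. Dnajb4, a cytosolic relative of Dnajb1, measured 7.66, 7.51, 7.68 and 7.95 untreated and 6.72, 7.14, 6.63 and 7.65 with IL-22, so the 4th IL-22 array lay within the untreated range. It fell by 0.66 (SE 0.18, adjusted p = 0.0114), and without IL-22 array 1, IL-22 array 3 or untreated array 5 the adjusted p was 0.0637, 0.0768 and 0.0508. Dnajb14, a J-domain protein of the endoplasmic reticulum membrane, fell by 0.34 (adjusted p = 0.0018) from 7.66, 7.75, 7.65 and 7.80 to 7.30, 7.37, 7.35 and 7.48. Dnajb12, its relative in the same membrane, fell by 0.20 (adjusted p = 0.0439), Dnajb2 fell by 0.23 (0.03) and the HSP110 gene Hspa4l fell by 0.32 (0.0218). The blocked fit ended the calls of Dnajb2 (0.162) and Hspa4l (0.0758), and leaving out single arrays ended those of Dnajb12 (any of 5 arrays, adjusted p up to 0.202), Dnajb2 (any of 4, up to 0.149) and Hspa4l (any of 3, up to 0.113).

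Of the members described in every comparison, Hsp90aa1, Hspa8, Hspa1a, Stip1, Hspd1, Hspe1, Hsph1 and Tcp1 did not pass the test with IL-22. Hsp90aa1 measured 13.06 ± 0.07 (SD, n = 4) against 12.96 ± 0.07 (SD, n = 4; difference 0.10, 95% interval −0.01 to 0.21). Hspa8, the constitutive HSP70, differed by 0.08 (−0.02 to 0.18), the inducible Hspa1a by 0.08 (−0.07 to 0.23) and the HSP90 to HSP70 adaptor Stip1 by 0.00 (−0.09 to 0.10). The mitochondrial chaperonin genes Hspd1 and Hspe1 differed by 0.08 (−0.07 to 0.24) and 0.02 (−0.14 to 0.17). Hsph1, an HSP110 gene, differed by 0.18 (0.01 to 0.35, adjusted p = 0.193) and Tcp1 by 0.09 (adjusted p = 0.618). None of the 10 cytosolic chaperonin genes passed the threshold, with 2 of them at an unadjusted p under 0.05 and a median difference of 0.08. Beside these values, the mean of the 3 measured erythroid markers was 6.74 to 6.91 on IL-22 arrays and 7.19 to 7.29 on untreated ones, where Klf1 averaged 7.23 and 8.35 and Alas2 was below the median gene in both. The mean of the 7 myeloid markers was 7.89 to 9.33 (median 7.92) on IL-22 arrays and 7.86 to 9.33 (median 8.49) on untreated ones. The part of the erythroid and myeloid markers in the members' differences was not tested.

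Among the 47 other measured genes of the chaperone system (co-chaperones, nucleotide exchange factors, prefoldin, proteases of mitochondria and heat shock factors), 3 rose and 3 fell with IL-22. That is 12.8% of the list, where 11.4% of all genes were called, with 6.38% higher and 6.38% lower against 5.39% and 6.03%. The rises were the HSP90 cyclophilin Ppid (0.42, adjusted p = 0.0326), the mitochondrial protease subunit Clpx (0.28, 0.0332) and the HSP90 co-chaperone p23, Ptges3 (0.25, 0.0472). The falls were heat shock factor 2, Hsf2 (−0.44, 0.0351), the phosducin-like chaperonin cofactor Pdcl (−0.31, 0.0349) and the HSP90 immunophilin Fkbp5 (−0.26, 0.00889).

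In synthetic receptor cells given GFP-mCherry, most genes of both chaperonins and several of the HSP70 system rose, by small amounts. Of the members 26 rose and 5 fell, 40.3% in all, where 26% of all genes were called. The share called higher was 33.8% of members and 14.2% of all genes, and the share called lower 6.49% and 11.8%. Among genes at or above the median gene the share called higher was 44.1% of 59 members and 27.6% of all such genes. The median difference was 0.09 over the members and −0.04 over all genes, and no member's difference reached 1.5-fold. Rises and falls depended on the scale. When each array was centred on its median, 34 members were called higher and none lower. With quantile normalization 19 were called higher and 4 lower.

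**Figure D2:**
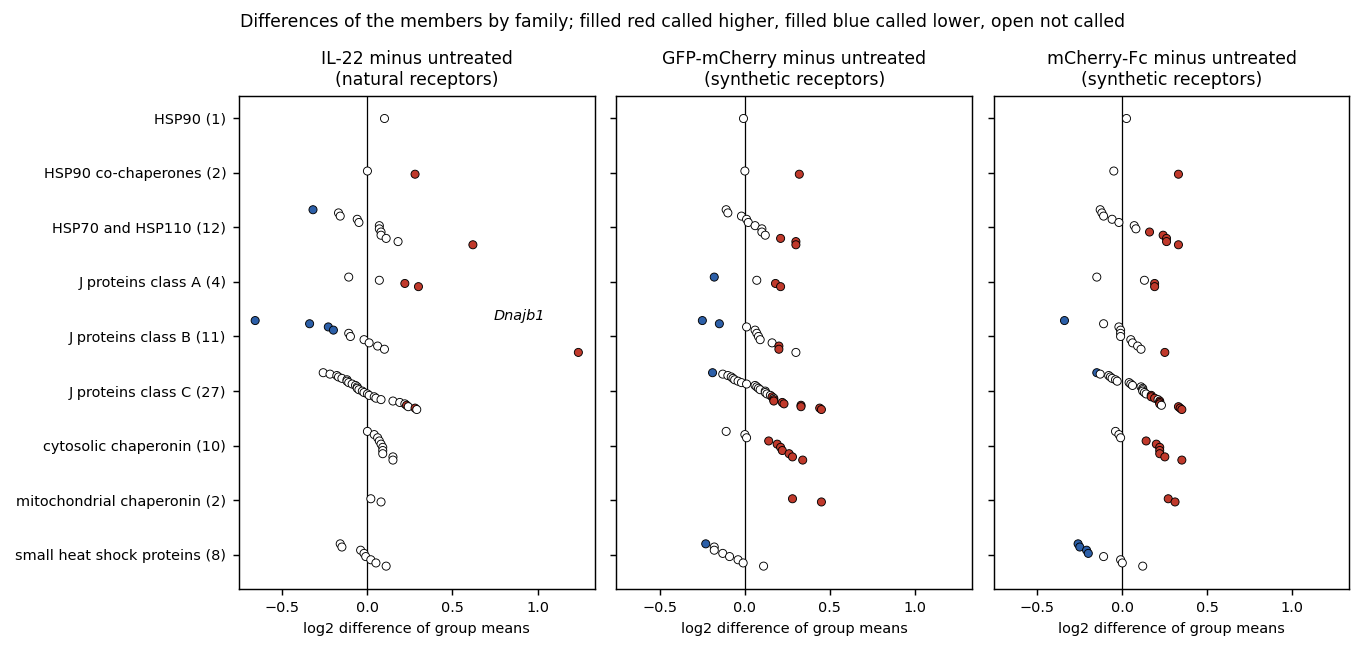
Log2 difference of group means (horizontal axis) for each of the 77 members, in rows by family, for IL-22 in natural receptor cells and for GFP-mCherry and mCherry-Fc in synthetic receptor cells. Filled points passed the threshold. Dnajb1 at 1.24 stands alone with IL-22. Both chaperonin families lie mostly right of 0 in each comparison shown, with called genes in the synthetic comparisons only.

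Both genes of the mitochondrial chaperonin rose. Hspe1, its lid, measured 10.63, 10.86, 10.84, 10.93, 11.01 and 10.95 on the untreated arrays and 11.40, 11.22, 11.27, 11.29, 11.37 and 11.33 with GFP-mCherry. The groups did not overlap, and Hspe1 rose by 0.45 (SE 0.06, 1.36-fold, adjusted p = 5.45e-06). Hspd1, the barrel itself, ranged from 10.68 to 11.03 (median 10.87) untreated and from 11.07 to 11.25 (median 11.12) with the protein, and rose by 0.28 (SE 0.06, adjusted p = 0.00125). The other probe set of each gene gave 0.42 for Hspe1 (adjusted p = 9.91e-06) and 0.42 for Hspd1 (0.000355). RefSeq lists 7 related copies of Hspe1 and 5 of Hspd1, so signal from copies may be included and these levels are uncertain in that respect.

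The cytosolic chaperonin moved the same way. Of its 10 genes 7 rose and none fell, where 14.2% of all genes and 27.6% of those at or above the median gene rose. The rises were Cct3 by 0.34, Cct6a by 0.28, Cct7 by 0.26, Cct5 by 0.22, Cct8 by 0.21, Tcp1 by 0.19 and Cct2 by 0.14. Cct4 averaged 11.56 untreated and 11.57 with GFP-mCherry and was not called. Neither were Cct6b and Cct8l1, both below the median gene. Cct3 ranged from 10.75 to 10.86 (median 10.82) untreated and from 11.09 to 11.20 (median 11.13) with GFP-mCherry, with no overlap (SE 0.05, adjusted p = 1.94e-05). Tcp1 overlapped between groups (adjusted p = 0.0306), and leaving out any of 5 arrays (untreated 7, 9 or 11, GFP-mCherry 11 or 13) ended its call, at up to 0.09. Cct8 lost its call without untreated 7, 9 or 11 or GFP-mCherry 13, at up to 0.0885. RefSeq lists 1 related copy each of Cct3 and Tcp1.

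**Figure D3:**
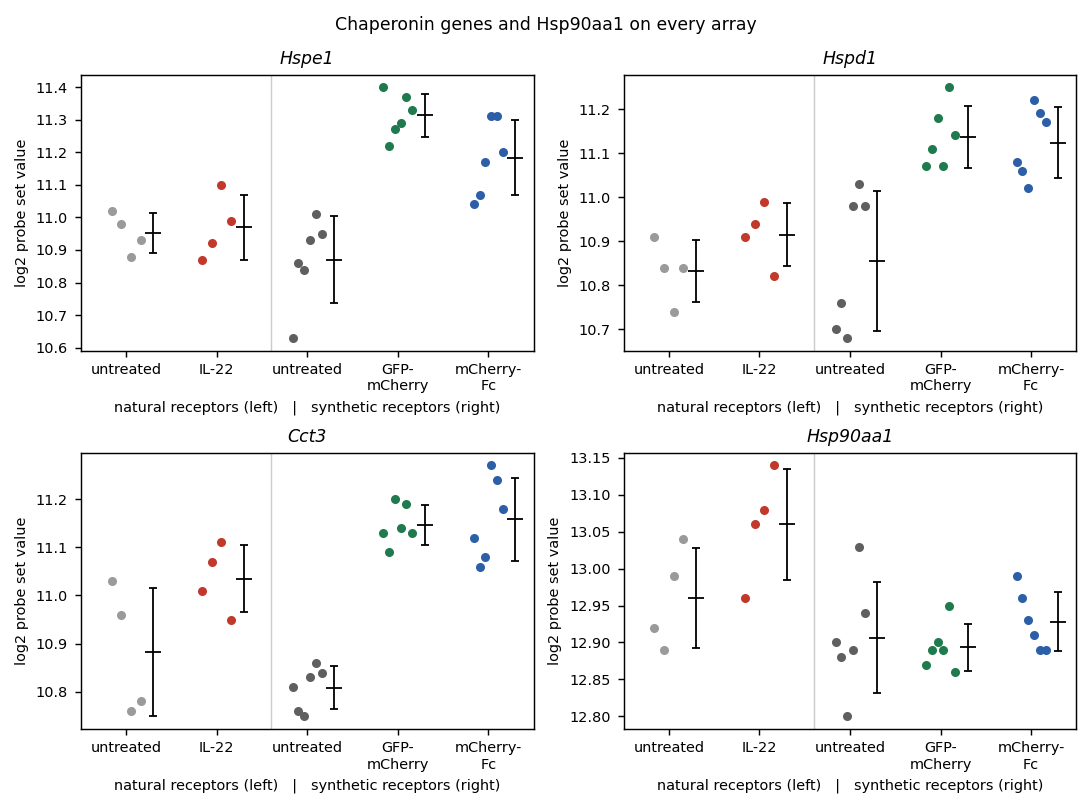
Log2 probe set values (vertical axis) of the chaperonin genes Hspe1, Hspd1 and Cct3 and of Hsp90aa1 on each array by group, with group mean and SD. The GFP-mCherry arrays of Hspe1 (11.22 to 11.40) lie above its untreated arrays (10.63 to 11.01), while Hsp90aa1 averaged 12.89 and 12.91 in the same groups.

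Among the HSP70 system, the HSP110 gene Hspa4 ranged from 10.68 to 10.86 (median 10.82) untreated and from 11.02 to 11.13 (median 11.09) with GFP-mCherry, without overlap, and rose by 0.30 (SE 0.04, adjusted p = 1.32e-05). Hspa14 rose by 0.30 (adjusted p = 0.000262) and Dnajc2 by 0.17 (0.0245). Hsph1 rose by 0.21 (adjusted p = 0.0174, 0.0567 without untreated array 7). The HSP90 activator Ahsa1 ranged from 9.19 to 9.32 (median 9.23) untreated and from 9.50 to 9.70 (median 9.57) with the protein and rose by 0.32 (adjusted p = 9.52e-06). Hsp90aa1 (−0.01, 95% interval −0.11 to 0.08), Hspa8 (0.06, −0.02 to 0.14), Hspa1a (0.01, −0.12 to 0.13), Stip1 (0.00, −0.08 to 0.08) and Dnaja1 (0.07, adjusted p = 0.379) did not pass.

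Of the J-domain proteins, 13 of 42 rose, where 14.2% of all genes and 27.6% of those at or above the median gene did. The largest were Dnajc15 of the mitochondrial inner membrane (0.45, adjusted p = 8.19e-06), Dnajc12, a helper of aromatic amino acid hydroxylases (0.44, 6.97e-05), the nuclear histone chaperone partner Dnajc9 (0.33, 5.28e-05) and Dnajc18 (0.33, 0.00582). Dnajc15 ranged from 8.05 to 8.31 (median 8.12) untreated and from 8.41 to 8.73 (median 8.64) with GFP-mCherry. Its groups did not overlap, nor did those of Dnajc9 (8.82 to 9.13 and 9.26 to 9.43). Dnajb1 rose by 0.20 (SE 0.05, adjusted p = 0.00728), from 9.18, 9.13, 9.16, 8.97, 8.92 and 9.06 to 9.22, 9.30, 9.24, 9.28, 9.29 and 9.27. That Dnajb1 call was lost with quantile normalization (0.11, adjusted p = 0.213) and in the low replicate numbers alone (0.10, 0.271). The falls were Dnajb8 (−0.25), the small heat shock protein gene Hspb2 (−0.23), Dnajc17 (−0.19), Dnaja4 (−0.18) and Dnajb12 (−0.15), at adjusted p-values of 0.0101, 0.0213, 0.00992, 0.0393 and 0.0321. With arrays centred on their medians the adjusted p-values of all 5 were above the threshold. Of the 31 calls 20 held whichever array was left out, and without untreated array 7 the number of calls was 20.

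With mCherry-Fc in the same cells, 27 members rose and 6 fell, 42.9% in all, where 26.9% of all genes were called. This comparison shares its 6 untreated arrays with that of GFP-mCherry, so the results are given side by side and not as a repeat. The share called higher was 35.1% of members and 14.0% of all genes (45.8% against 27.2% at or above the median gene), and the share called lower 7.79% and 13.0%. The median difference was 0.09 over the members and −0.04 over all genes. Centring each array on its median gave 35 higher and 1 lower, and quantile normalization gave 17 higher and 5 lower.

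Hspe1 ranged from 11.04 to 11.31 (median 11.18) with mCherry-Fc, above every untreated array, and rose by 0.31 (SE 0.06, adjusted p = 0.000573). Hspd1 rose by 0.27 (adjusted p = 0.00246), with overlap. The same number of cytosolic chaperonin genes rose, 7 of 10, led by Cct3 (0.35, adjusted p = 2.06e-05), which ranged from 11.06 to 11.27 (median 11.15). Of all genes 14.0% rose, and of those at or above the median gene 27.2%. Cct4 averaged 11.56 untreated and 11.54 with mCherry-Fc and was again not called. With the replicate number as a block, the calls of Tcp1 (0.22, blocked adjusted p = 0.0533), Cct8 (0.22, 0.118) and Cct2 (0.14, 0.105) did not hold. In that fit mCherry-Fc arrays 8, 10 and 15, whose numbers no other array has, add nothing to the difference. The chaperonin genes Cct3, Cct5, Cct6a and Cct7 kept theirs in the blocked fit.

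Hsph1 ranged from 9.33 to 9.74 (median 9.52) untreated and from 9.73 to 10.00 (median 9.85) with mCherry-Fc, with a slight overlap, and rose by 0.33 (SE 0.07, adjusted p = 0.000695). Hspa4 rose by 0.26 (adjusted p = 9.48e-05), the testis-enriched HSP70 gene Hspa2 by 0.26 (0.00625), Hspa14 by 0.24 (0.00348) and the mitochondrial HSP70 gene Hspa9 by 0.16 (0.0174, blocked 0.0555). Ahsa1 rose by 0.33 (adjusted p = 1.34e-05). Hsp90aa1 (0.02, −0.07 to 0.11), Hspa8 (0.08, 0.00 to 0.16), Hspa1a (−0.11, −0.23 to 0.02), Stip1 (−0.05, −0.12 to 0.03) and Dnaja1 (0.13, adjusted p = 0.0846) did not pass, although 1 of the 3 probe sets of Hspa8 was called (0.13, adjusted p = 0.02).

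Of the J-domain proteins 12 of 42 rose, where 14.0% of all genes and 27.2% of those at or above the median gene did. Dnajc15 (0.35, adjusted p = 0.000271), Dnajc21 (0.34, 0.00477) and Dnajc9 (0.33, 8.19e-05) rose most. Dnajc5, the cysteine string protein of vesicles, ranged from 9.72 to 9.80 untreated and from 9.95 to 10.05 with mCherry-Fc and rose by 0.22 (adjusted p = 0.000433). Dnajb1 rose by 0.25 (SE 0.05, adjusted p = 0.00108), to 9.29 to 9.35, a call again lost with quantile normalization (0.15, 0.0998) and in the low replicate numbers alone (0.18, 0.0591). The falls were Dnajb8 (−0.34), which kept its call after centring, Dnajc17 (−0.15, blocked adjusted p = 0.261) and 4 of the 8 small heat shock protein genes, which bind unfolded proteins without ATP. These 4 were Hspb1 (−0.26, adjusted p = 0.0248), Hspb9 (−0.25, 0.01), Hspb6 (−0.21, 0.0168) and Hspb2 (−0.20, 0.0488), and after centring their adjusted p-values were 0.094, 0.102, 0.308 and 0.329. The blocked fit also ended the call of Hspb2 (0.702), and the rises of Dnaja2 (0.0858), Dnajc14 (0.087) and Dnajc8 (0.194). Hspb1 lost its call without untreated 7 (0.0777), mCherry-Fc 9 or mCherry-Fc 13, and its other probe set was not called (−0.24, adjusted p = 0.0515). Of the 33 calls 25 held whichever array was left out.

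Of the 47 other chaperone system genes, 25 rose and 2 fell with GFP-mCherry, and 26 rose and 2 fell with mCherry-Fc, with median differences of 0.18 and 0.21. These calls are 57.4% and 59.6% of the list, where 26% and 26.9% of all genes were called. The share called higher was 53.2% and 55.3%, against 14.2% and 14.0% of all genes and 27.6% and 27.2% of genes at or above the median gene. The largest rises with GFP-mCherry were the mitochondrial protease Clpp (0.57, adjusted p = 3.09e-08), the nucleotide exchange factor Bag1 (0.45, 6.03e-05) and Bag5 (0.42, 0.00103). With mCherry-Fc they were Clpp (0.45, 2.43e-06), Bag1 (0.39, 0.00038) and Bag5 or the HSP90-linked Nudcd2 (both 0.37, adjusted p = 0.00367 and 6.58e-05). Serpinh1, the collagen chaperone HSP47, fell by 0.36 and by 0.31 (adjusted p = 0.00437 and 0.0127), and Hsf5 fell by 0.22 and by 0.25 (0.0202 and 0.00921).

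**Figure D4:**
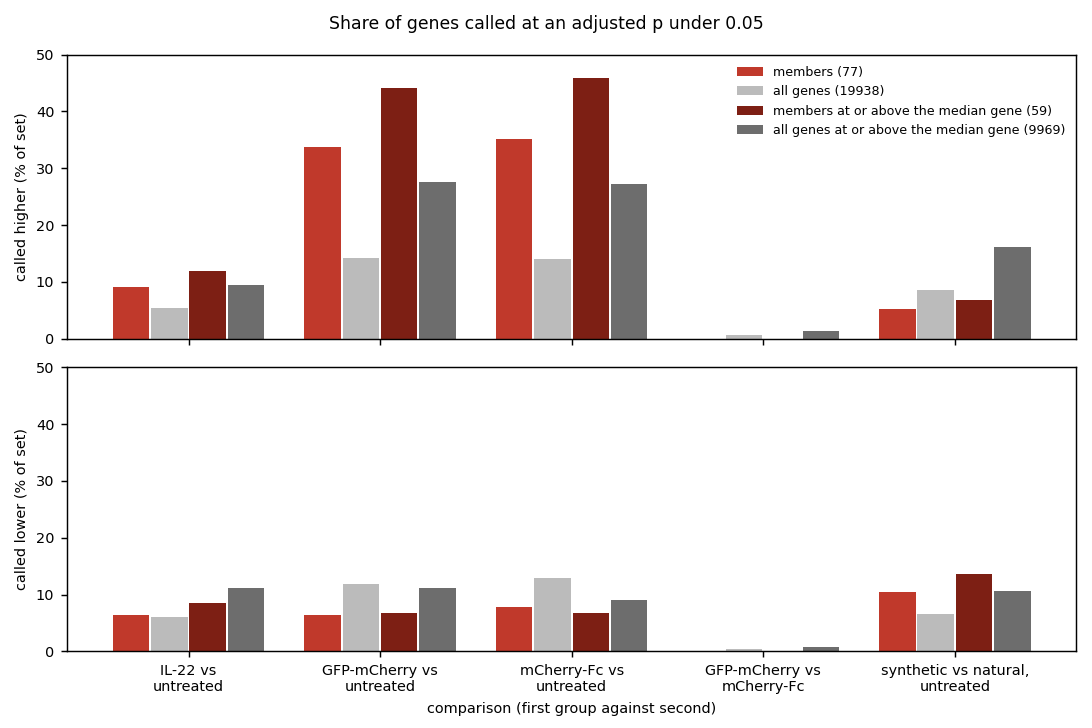
Percent of members and of all genes called higher (top) and lower (bottom) in each comparison, over all genes and over those with a mean at or above the median gene. Members were called higher in 33.8% with GFP-mCherry and 35.1% with mCherry-Fc, against 14.2% and 14.0% of all genes.

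GFP-mCherry and mCherry-Fc were compared directly over 6 arrays each. No member passed the threshold in limma's test, where 1.09% of all genes did (0.722% higher, 0.371% lower), and 5 members had an unadjusted p under 0.05. They were Dnajc5 (−0.13, 95% interval −0.22 to −0.04), Dnajc12 (0.22, 0.06 to 0.37), Hspe1 (0.13, 0.00 to 0.26), Dnajb4 (0.30, 0.00 to 0.60) and Hspa2 (−0.14, −0.28 to 0.00), at adjusted p-values of 0.225 to 0.561, named after their values were seen. Dnajc5 was the only member whose groups did not overlap (1.30% of members against 2.96% of all genes), with 9.80 to 9.94 on GFP-mCherry arrays and 9.95 to 10.05 on mCherry-Fc arrays. The difference was −0.06 (−0.17 to 0.05) for Dnajb1, 0.01 (−0.11 to 0.14) for Hspd1 and −0.03 (−0.13 to 0.06) for Hsp90aa1. None of the 47 other chaperone system genes passed either.

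The response to each synthetic ligand was then tested against the response to IL-22, as an interaction. With GFP-mCherry, 9 members responded more upward and 2 more downward than with IL-22, 14.3%, where 13.6% of all genes were called (9.23% upward, 4.40% downward). The largest was Dnajb1, whose response was lower by 1.04 (95% interval −1.21 to −0.86, adjusted p = 8.04e-10), and Hspa14 was lower by 0.32 (0.0173, not held without IL-22 array 2 or 3, at up to 0.0517). On the other side stood Dnajb4 (0.96), Dnajc15 (0.56), Dnajc9 (0.51), Dnajb14 (0.50), Hspe1 (0.43) and Dnajb2 (0.42). With mCherry-Fc 8 members responded more upward and 4 more downward, 15.6% against 13.4% of all genes (8.76% upward, 4.60% downward). At or above the median gene 18.6% of members were called in either interaction, against 24% (GFP-mCherry) and 22.9% (mCherry-Fc) of all such genes. Dnajb1 was again lower, by 0.98 (−1.16 to −0.81, adjusted p = 2.48e-09), and Hspa14 by 0.38 (0.00456). Dnajb1 was the only member that kept its call under all 30 alternatives in both interactions. These alternatives include the high replicate numbers, where IL-22 array 5 stood alone. None of the 10 cytosolic chaperonin genes was called in either interaction, with median differences of 0.11 and 0.10. Hspd1 was not called either (0.20 and 0.18). The 2 interactions share the untreated arrays of both lines and the IL-22 arrays. Among the 47 other genes 15 and 13 responded more upward and none more downward. Upward calls were 31.9% and 27.7% of the list, against 9.23% and 8.76% of all genes. At or above the median gene 17.8% and 16.9% of all such genes were called upward. The list was led by Hsf2 (0.62 and 0.65, adjusted p = 0.0194 and 0.014) and Fkbp5 (0.59 and 0.60, adjusted p = 2.02e-05 and 1.83e-05), with Nudc (0.46, 0.00115) for GFP-mCherry and Pdcl (0.49, 0.00918) for mCherry-Fc.

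Untreated, the lines themselves differed. With synthetic receptors 4 members were higher and 8 lower than with natural receptors, 15.6%, where 15.2% of all genes were called (8.60% higher, 6.62% lower). At or above the median gene 20.3% of members and 26.9% of all such genes were called. Hspa4 was lower by 0.30 (adjusted p = 6.53e-05), from 11.06 to 11.12 with natural receptors and from 10.68 to 10.86 with synthetic ones, and was the only member to keep its call under all 19 alternatives. Also lower were Hspa2 (−0.32, adjusted p = 0.0037), Dnaja1 (−0.25, 0.00545), Dnajc15 (−0.22, 0.0304), Dnaja3 (−0.21, 0.00437), Dnajc5 (−0.20, 0.00308), Hspa9 (−0.20, 0.0132) and Hspa8 (−0.13, 0.0419). The dimmest probe set of Hspa8 was not called (−0.11, adjusted p = 0.209). Higher were Dnajc7 (0.33, 0.0156), Hspb6 (0.28, 0.00634), Hspa4l (0.27, 0.0279) and Dnajc6 (0.22, 0.029). Of these 12, Dnaja1, Dnaja3, Dnajc5, Hspa2, Hspa4 and Hspb6 held whichever array was left out, and 7 were called without natural untreated array 5. Dnajb1 was at 9.07 ± 0.11 (SD, n = 6) and 9.08 ± 0.09 (n = 4), a difference of −0.01 (−0.14 to 0.11). Hsp90aa1 (−0.05), Hspd1 (0.02), Hspe1 (−0.08), Hsph1 (−0.10), Stip1 (−0.04), Tcp1 (0.01), Hspa1a (−0.06) and Ahsa1 (−0.13, adjusted p = 0.109) did not pass. Of the other genes 3 were higher (Trap1, the mitochondrial HSP90, by 0.29, Vbp1 by 0.28 and Sugt1 by 0.26) and 3 lower (Lonp1 by −0.35, Nudcd2 by −0.32 and Fkbp5 by −0.26). These calls are 12.8% of the list of 47, against 15.2% of all genes. The line and the clone or culture it came from cannot be told apart, and the part of the myeloid markers given above in these differences was not tested.

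Some of these values moved with the replicate number in the titles, which the labels do not describe as a batch. On the untreated synthetic arrays Dnajb4 measured 7.75, 7.83 and 7.90 at numbers 7, 9 and 11 and 8.29, 8.63 and 8.47 at numbers 12, 13 and 14. Dnaja2 measured 9.61, 9.53 and 9.64 and then 9.92, 9.91 and 9.95 on the same arrays. In the low numbers alone (natural 1 to 3, synthetic 7 to 11), 14, 36 and 34 members were called with IL-22, GFP-mCherry and mCherry-Fc. There 16.1%, 30% and 24.6% of all genes were called. In the high numbers 14 and 19 members were called with GFP-mCherry and mCherry-Fc, where 20.3% of all genes were called with each. As the high numbers hold IL-22 array 5 alone, only differences are given for IL-22 there. The median over members was 0.16 for either synthetic ligand in the low numbers, and 0.05 and 0.07 in the high ones. Between the untreated lines 1 member was higher and 11 lower in the low numbers, and 20 higher and 4 lower in the high ones. Of all genes 11.8% were called in the low numbers (4.37% higher) and 28.8% in the high ones (18.3% higher). That comparison thus turned with the number over all genes as well as over the members. Dnajb1 was higher with IL-22 in both ranges, by 1.25 (adjusted p = 1.43e-08) in the low numbers and by 1.15 in the high ones. The latter value rests on IL-22 array 5 against untreated arrays 4 and 5. Hspe1 rose with mCherry-Fc in both ranges, by 0.32 (adjusted p = 0.0132) and 0.31 (0.00359). The Dnajb1 response to GFP-mCherry stayed below that to IL-22, by −1.15 and −0.85, the latter again with IL-22 array 5 alone. Fitting the number range as a batch term gave 15, 38 and 39 called members for IL-22, GFP-mCherry and mCherry-Fc, where the main fit gave 12, 31 and 33. Over all 19938 genes it gave 3021, 6947 and 7392 calls, where the main fit gave 2277, 5183 and 5371. What the number range stands for was not tested.

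**Figure D5:**
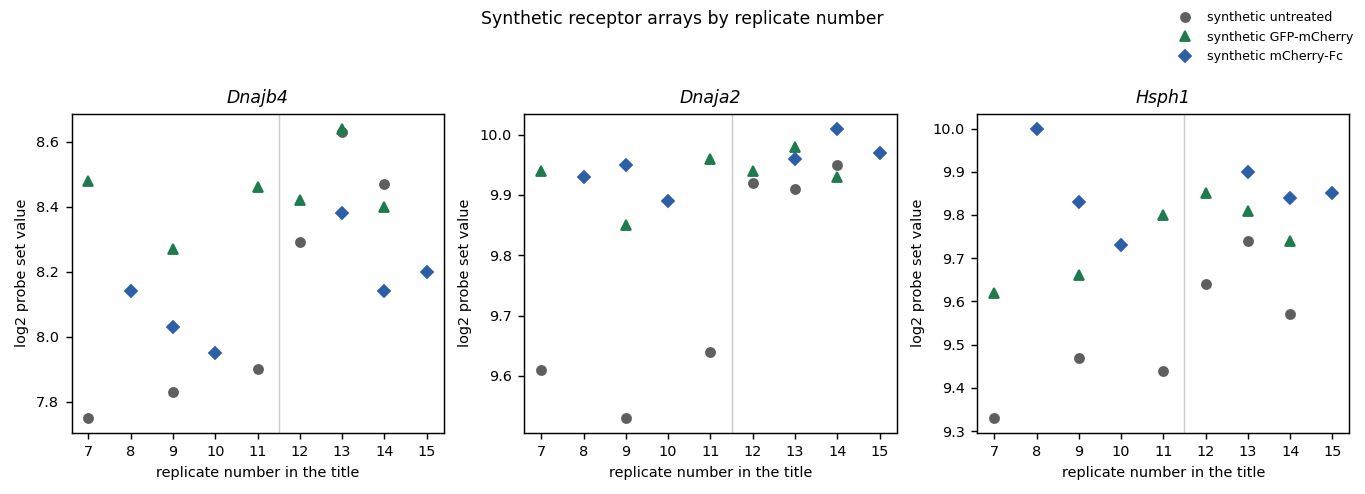
Log2 probe set values (vertical axis) of Dnajb4, Dnaja2 and Hsph1 on the 18 synthetic receptor arrays against the replicate number in the title, with a line between numbers 11 and 12. The untreated arrays of Dnaja2 lie between 9.53 and 9.64 left of the line and between 9.91 and 9.95 right of it.

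Across all 26 arrays the genes whose values ran most like those of Dnajb1, by Pearson's r, were Sbno2 (0.985), Osm (0.980), Socs3 (0.978), Il4ra (0.978) and Irf2bpl (0.974). These coefficients describe arrays that share groups and are given with no test.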

How the data were processed

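The files hold log2 values, 1 for each probe set, deposited by the authors. The submitters' processing notes name Affymetrix Expression Console 4.0 and the labels a core analysis of genes or exons. The algorithm is not given in the sources used here. They spanned 1.79 to 14.31, with array medians of 6.06 to 6.28, and no pair of arrays was identical. The number of arrays limits their precision. Of 35556 probe sets, 21789 were paired with 1 symbol in the annotation used, 1621 with several and 12146 with none. The brightest probe set per gene, by its mean over 26 arrays, gave 19938 genes, with no filter on dim genes. Levels of different probe sets were not compared. Where the text gives copies of a gene, their signal could not be separated.

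A linear model of the 5 groups was fitted to each gene over all 26 arrays (limma 3.58.1 in R 4.3.3, lmFit and eBayes, two-sided, 21 residual degrees of freedom), with Benjamini-Hochberg adjustment over the 19938 genes and a threshold of 0.05. Every adjusted p in the text is from this fit unless an alternative is named. It was tested on simulated data. Rose and fell mean past that threshold. Named members are 11 of 14 always described chaperones, the 10 largest called rises and falls per comparison, and the 3 largest each way among 47 other genes of the pathway. Any other gene was picked with its values in view. Members and lists were chosen with earlier results of these data known, so no list has a test of its own.

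Deviations of same-numbered arrays correlated at 0.313 to 0.621 for IL-22 and untreated (3 pairs). The values were 0.26 to 0.466 for mCherry-Fc and untreated and 0.105 to 0.271 for GFP-mCherry and mCherry-Fc (3 pairs each). Arrays of different numbers reached 0.362, 0.516 and 0.311 in these comparisons (medians −0.26, −0.18 and −0.045). For GFP-mCherry and untreated the values were −0.146 to 0.417 (6 pairs). A shared number is therefore not shown to mark a pair. The main fit took no account of the number, and the block was an alternative in every comparison. With the number as a fixed block, an array whose number no other array has adds nothing to the differences. These were IL-22 array 1, natural untreated array 4 and mCherry-Fc arrays 8, 10 and 15. Alternatives were quantile normalization, median centring, probe set means, a filter on means below 6, a trended robust variance prior, only the groups compared, number ranges (alone or as a batch term), the block and left-out arrays. Promoter letters came from RefSeq's table for GRCm38.p6. No build is named in the files.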

Additional observations from a re-analysis of the deposited data

Results flagged for a closer look

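Dnajb1 and Hspa14 responded less to both synthetic ligands than to IL-22. The response differed for 14.3% of members with GFP-mCherry and 15.6% with mCherry-Fc, against 13.6% and 13.4% of all genes. At or above the median gene it differed for 18.6% of members with either ligand, against 24% and 22.9% of all such genes. Over all genes, too, upward differences were more frequent, at 1840 against 878 and 1747 against 917. In the test of that difference (limma), the response to GFP-mCherry exceeded that to IL-22 by −1.04 for Dnajb1, −0.32 for Hspa14, 0.96 for Dnajb4, 0.56 for Dnajc15, 0.51 for Dnajc9, 0.50 for Dnajb14, 0.43 for Hspe1, 0.42 for Dnajb2, 0.41 for Dnajc18, 0.32 for Dnaja3 and 0.22 for Hspa4. For mCherry-Fc less IL-22 the difference was −0.98 for Dnajb1, −0.38 for Hspa14, −0.36 for Hspb9, −0.35 for Dnajb8, 0.51 for Dnajc9, 0.46 for Dnajc15, 0.40 for Dnajb14, 0.34 for Dnajb2, 0.32 for Hspa2, 0.30 for Hspe1, 0.30 for Dnaja3 and 0.28 for Dnajc5. In the high replicate numbers, where IL-22 array 5 stood alone, the difference of Dnajb1 was −0.85 and −0.82. That range does not test whether the differences listed here hold. The other probe set of Hspe1 gave 0.23 for mCherry-Fc less IL-22 and was not called (adjusted p = 0.114). With the replicate block the differences of Hspa4 with GFP-mCherry and of Dnajb2, Dnajb8, Hspa2 and Hspe1 with mCherry-Fc were not called (adjusted p = 0.0846, 0.0966, 0.0802, 0.123 and 0.0981).

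Single arrays stood apart from their group in 9 of 200 checks of named members, as a gap to the nearest array over the group's range, and chance alone gives about 1 in 20. Dnaja4 was lowest on natural untreated array 5 (6.77, next 6.91, ratio 0.843) and on GFP-mCherry array 13 (6.70, next 6.87, ratio 0.691). Hspa8 was lowest on natural untreated array 3 (13.10, ratio 0.885) and on mCherry-Fc array 15 (13.06, ratio 0.712). Hspb1 was highest on synthetic untreated array 7 (6.10, next 5.67, ratio 0.67), an array without which, among others, its fall with mCherry-Fc was not called. The others were Hspa1a on IL-22 array 3 (highest, 6.79, ratio 0.866), Dnajb14 on mCherry-Fc array 10 (lowest, 7.64, ratio 0.698), Dnajc2 on mCherry-Fc array 13 (highest, 8.87, ratio 0.654) and Stip1 on mCherry-Fc array 8 (highest, 11.11, ratio 0.645).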

How the results depend on the processing

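Counts of called members by comparison moved most with the arrays and groups used. Without 1 array they ran from 7 to 14 for IL-22, 20 to 35 for GFP-mCherry, 26 to 37 for mCherry-Fc, 8 to 15 and 8 to 16 for the GFP-mCherry and mCherry-Fc responses minus that to IL-22, and 7 to 12 between the untreated lines. GFP-mCherry against mCherry-Fc stayed at 0 without any 1 array. With only the groups compared in the fit, 5 members were called for IL-22, 1 for GFP-mCherry against mCherry-Fc and 5 between the lines, where fewer arrays estimate the spread. A batch term for the number range gave 20 for the GFP-mCherry response minus that to IL-22 and 1 for GFP-mCherry against mCherry-Fc. Low numbers alone gave 22 and 19 for the GFP-mCherry and mCherry-Fc responses minus that to IL-22. High numbers alone gave 2 and 2 for these, 3 for IL-22, 14 for GFP-mCherry, 19 for mCherry-Fc and 24 between the lines. In them the response difference of Dnajc18 reversed to −0.04, and in low numbers the line difference of Dnajc7 reversed to −0.01. The cause of these moves was not tested beyond the arrays left out. With the replicate block 8 members were called for IL-22, 36 for GFP-mCherry, 25 for mCherry-Fc and 0 between the ligands. The block gave 12 and 8 for the response differences and, as a random block, 13 between the lines. Besides the calls named with the results, it ended those of the response differences of Hspa4 with GFP-mCherry (adjusted p = 0.0846) and of Dnajb2 (0.0966), Dnajb8 (0.0802), Hspa2 (0.123) and Hspe1 (0.0981) with mCherry-Fc, and no other. Centring each array on its median moved the median of all genes from −0.04 to 0.06 with mCherry-Fc, and the calls to 6 higher and 2 lower for IL-22, 34 and 0 for GFP-mCherry, 35 and 1 for mCherry-Fc, and 7 and 1 for the mCherry-Fc response minus that to IL-22. Quantile normalization gave 13, 23, 22, 0, 12, 12 and 17 calls over the 7 comparisons.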
